A study of Mus musculus with 8 samples.

Results

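Mature microRNAs (miRNAs) of ATM+/+ mouse embryonic fibroblasts harvested 8 h after neocarzinostatin were compared with those of the same genotype harvested at 0 h. The members were all 298 probes that the authors' deposited comparison of these harvests lists, out of 505 probes found across all files of the series, and 2 of its 8 arrays carry the comparison. They bear 295 different miRNA names. Mouse embryonic fibroblasts are connective-tissue cells grown from embryos, and the ATM+/+ and ATM-/- lines came from littermates. Both genotypes received neocarzinostatin, a radiomimetic drug that makes DNA double-strand breaks, and were harvested at 0, 4, 8 and 24 h. The cells grew in medium with fetal calf serum, and the labels do not say whether the 0 h dishes received a carrier in place of the drug or from how many embryos each line came.

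ATM is a kinase that is activated at DNA double-strand breaks and signals to p53 and many other proteins. A miRNA is cut from a hairpin precursor and guides repression of messenger RNAs that pair with its seed, the bases near its 5′ end. After DNA damage, miRNA levels are known to change through transcription, as for the p53-induced miR-34 family, and through maturation of the precursor, in which RNA-binding proteins such as KSRP take part.

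The mature sequences of 230 of the 298 probes (77.2%) were matched by name in RefSeq (GRCm38.p6). The let-7 sequences are shown first, because every listed probe of that family lay above 0 h. They are written 5′ to 3′ with the seed, bases 2 to 8, in capitals, and they differ outside it.
let-7a: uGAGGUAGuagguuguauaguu
let-7b: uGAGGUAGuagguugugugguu
let-7f: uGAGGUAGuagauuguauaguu
let-7i: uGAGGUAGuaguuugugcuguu
The RefSeq table places let-7a at chr13:48538239-48538260 on the minus strand and let-7b at chr15:85707325-85707346 on the plus strand. It places let-7i at chr10:122985698-122985719 on the minus strand and 1 of the 2 copies of let-7f at chr13:48537889-48537910 on the minus strand.

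The next sequences belong to miRNAs that were higher at 8 h and not faint (miR-125b-5p, miR-21 and miR-29b) or that were at least 2-fold higher over a faint 0 h signal (miR-146a, miR-34b-5p and miR-100). No 2 of these 6 share a seed.
miR-125b-5p: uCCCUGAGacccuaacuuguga
miR-21: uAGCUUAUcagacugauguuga
miR-29b: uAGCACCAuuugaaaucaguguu
miR-146a: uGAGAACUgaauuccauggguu
miR-34b-5p: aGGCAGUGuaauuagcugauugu
miR-100: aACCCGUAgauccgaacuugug
On GRCm38.p6, miR-21 lies at chr11:86584120-86584141 on the minus strand, miR-146a at chr11:43374435-43374456 on the minus strand, and miR-34b-5p at chr9:51103610-51103632 on the minus strand. A copy of miR-125b-5p lies at chr9:41581940-41581961 and miR-100 at chr9:41531437-41531458, both on the plus strand. A copy of miR-29b lies at chr1:195037091-195037113 on the plus strand.

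The last set shows miRNAs that were at least 2-fold lower at 8 h and well above the faint range. The sequences of miR-1187 and miR-574-5p hold runs of alternating U and G, that of miR-705 is rich in G, and that of miR-882 begins with a run of G and A.
miR-1187: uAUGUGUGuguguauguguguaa
miR-574-5p: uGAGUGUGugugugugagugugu
miR-882: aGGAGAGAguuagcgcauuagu
miR-705: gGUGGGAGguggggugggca
These mature miRNAs lie at chr5:82798964-82798986 (miR-1187, minus strand), chr5:64970328-64970350 (miR-574-5p, plus strand), chr12:109682207-109682228 (miR-882, plus strand) and chr6:85336341-85336360 (miR-705, minus strand).

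Each time and genotype was measured on 1 single-colour array, so no value below has a replicate and no test was possible. The number of arrays limits the precision. The error given after ± is the standard error of a log2 ratio from the 3 spots of a probe on each array (spot SE). It leaves out the spread between cultures and between arrays. In such bulk RNA, fewer cells of a type and less miRNA per cell cannot be told apart. The 0 h and 4 h arrays were on 1 chip and the 8 h and 24 h arrays on another, so chip and time cannot be told apart in any ratio of 8 h to 0 h; the 0 h and 8 h arrays held the same position on their chips. The authors' deposited ratio table, in which each array is divided by its 0 h array, served as the other readout, and held 238 of the 298 probes and none of the 34 star strands. The median intensity of the listed probes was 83.3 at 0 h and 77.8 at 8 h, and the 5 brightest held 74.6% and 68.6% of the summed intensity. A probe is called faint here when either intensity lay below 30.9, the 10th percentile of all intensities of the comparison.

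The median log2 ratio of 8 h over 0 h was 0.07, the quartiles were -0.58 and 0.45, and 157 of 298 probes (52.7%) lay above 0 h. By at least 2-fold, 11 probes were higher (3.69%) and 25 lower (8.39%). All 11 higher probes were faint, while 20 of the 25 lower ones were not: among the 246 probes that were not faint, 0 were 2-fold or more higher (0.0%) and 20 were 2-fold or more lower (8.13%). In the ratio table the split was different, with 20 of 238 probes 2-fold or more higher (8.4%) and 17 as much lower (7.14%), and its median was 0.21. Over all 431 probes of that table the counts were 26 (6.03%) and 18 (4.18%). Higher by that much in both readouts were 6 probes, of 11 by intensity and 20 by the ratio table, and lower were 11, of 25 and 17. The median spot SE was 0.14, and it fell with intensity, from a median of 0.27 in the 75 dimmest probes to 0.09 in the 75 brightest. The 75 dimmest held 9 of the 11 higher probes and 5 of the 25 lower ones, and the 75 brightest held 1 and 11. In the authors' deposited table, a p-value under 0.05 stood beside 168 of the 298 probes, 81 higher and 87 lower; that p-value could be recomputed from the means and spot variation of the 3 spots a side, so it measures spot spread within 2 arrays.

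**Figure D1:**
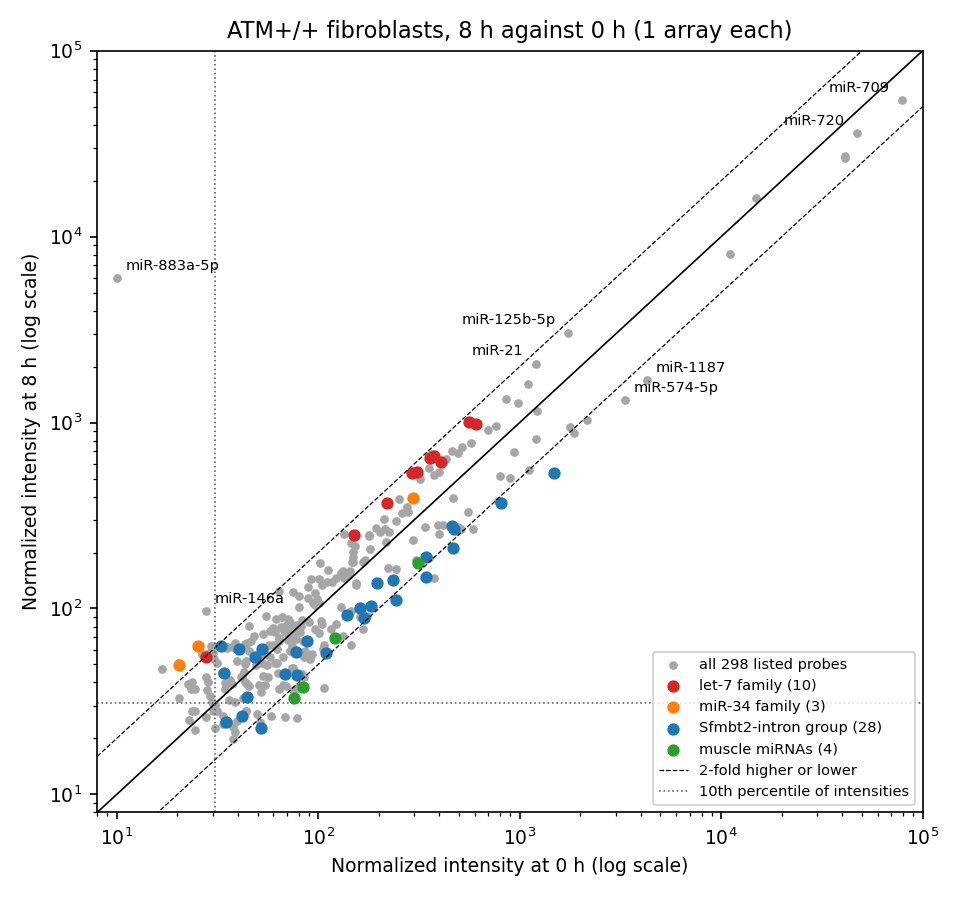
Normalized intensity at 8 h (vertical, log scale) against 0 h (horizontal, log scale) for the 298 listed probes, 1 point a probe, with 4 lists coloured; the solid line marks equal intensity, the dashed lines 2-fold differences and the dotted lines the 10th percentile of 30.9. The let-7 points lie between the solid and the upper dashed line, the Sfmbt2-intron points mostly below the solid line, and miR-883a-5p stands alone at 10.0 and 6003.

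The let-7 family, which represses growth-promoting messenger RNAs such as those of Ras and Hmga2, lay above 0 h with all of its 10 listed probes (9 miRNAs), against 52.7% of all listed probes. Its median log2 ratio was 0.82 and its range 0.60 to 0.98, so none reached 2-fold; the median of all listed probes was 0.07. The brighter let-7a probe read 607.5 at 0 h and 982 at 8 h, a log2 ratio of 0.69 ± 0.03. The other let-7a probe read 558 and 1007, a log2 ratio of 0.85 ± 0.12. These 2 probes of 1 miRNA thus gave nearby ratios. let-7f read 293 and 534 (log2 0.87 ± 0.15) and let-7i read 360.2 and 644 (log2 0.84 ± 0.18). let-7b, with the smaller spot error of 0.05, read 218 and 368, a log2 ratio of 0.75. let-7e had the lowest ratio of the family, at 0.60 ± 0.10. Only miR-98, a let-7 relative with the same seed, was faint, with 27.7 at 0 h and 54.8 at 8 h (log2 0.98 ± 0.24). By the other readout, 9 of 9 let-7 probes lay above 0 h, against 59.2% of the 238 in the ratio table, with a median of 0.99 and values of 1.05, 1.05, 1.04 and 0.99 for let-7a, let-7d, let-7f and let-7b.

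The miR-34 family, transcribed under p53 and known to repress cell-cycle genes, had 3 listed members, all above 0 h. miR-34c read 25.3 at 0 h and 62.8 at 8 h, a log2 ratio of 1.31 ± 0.20. miR-34b-5p read 20.5 and 49.8, a log2 ratio of 1.28 ± 0.18. Both 0 h values were faint. miR-34a, which comes from another locus and was the only member well above the faint range, read 295 and 393, a log2 ratio of 0.41 ± 0.13. In the ratio table miR-34c, miR-34b-5p and miR-34a stood at 2.01, 1.54 and 0.50. Of the wider list of p53-linked miRNAs, which holds the miR-34 members, 6 of 7 lay above 0 h, with a median of 0.42 and 2 at least 2-fold higher, against 52.7% and 3.69% of all listed probes. Beside miR-34 it held miR-16 (146 and 226, log2 0.63 ± 0.05) and miR-107 (149 and 200.3, log2 0.42 ± 0.10). It also held the smooth-muscle and fibroblast pair miR-143 (log2 0.33 ± 0.22) and miR-145 (log2 -0.07 ± 0.10).

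miR-146a, which is induced by NF-kB and restrains inflammatory signalling, had the highest ratio after miR-883a-5p, described below. It read 27.7 at 0 h, with a variation between spots of 43.5%, and 97.1 at 8 h, with 3.92%. Its log2 ratio was 1.81 ± 0.36, and 1.97 in the ratio table. The other listed members of the NF-kB-linked list differed among themselves: miR-21 stood at 0.79 ± 0.06, miR-155 at 0.08 ± 0.19 and miR-132 at -0.17 ± 0.11. miR-146a and miR-100 were also the 2 members at least 2-fold higher among 6 listed miRNAs with ATM, H2AX or BRCA1 messenger RNAs as reported targets; 5 of the 6 lay above 0 h, with a median of 0.48, against 52.7% of all listed probes above 0 h and 3.69% at least 2-fold higher. miR-100 read 20.5 and 50.6, a log2 ratio of 1.31 ± 0.22. miR-18a, reported to target ATM, read 112 and 160.2 (log2 0.52 ± 0.06), and miR-24, reported to target H2AX, read 697 and 912 (log2 0.39 ± 0.02).

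miR-883a-5p gave the widest difference of the comparison and cannot be read as a level. It read 10.0 at 0 h and 6003 at 8 h, a log2 ratio of 9.22 ± 1.57. The variation between its 3 spots was 77.1% at 0 h and 173% at 8 h, and 173% is the largest value that 3 spots can give, reached when 1 spot carries the signal. It is not in the ratio table. The remaining probes at least 2-fold higher were miR-22* (16.9 and 47.0, log2 1.48 ± 0.43), miR-24-2* (29.3 and 63.1, log2 1.11 ± 0.14), miR-501-3p (29.3 and 58.9, log2 1.01 ± 0.39), and miR-337-3p, miR-495 and miR-337-5p of the Dlk1-Dio3 cluster at 1.10, 1.07 and 1.02. All of these rested on 0 h values below 30.9.

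Several bright miRNAs known for high levels in fibroblasts read higher at 8 h, while miR-145 (1216 and 1156) did not. miR-125b-5p, which represses p53 messenger RNA among other targets, read 1733 at 0 h and 3045 at 8 h, a log2 ratio of 0.81 ± 0.20. miR-21, which represses the tumour suppressor Pdcd4, read 1204 and 2076, a log2 ratio of 0.79 ± 0.06. Both lay among the 15 highest ratios of probes that were not faint. The probe shared by miR-199a-3p and miR-199b, products of the mesenchymal Dnm3os locus and its relatives, read 361 and 677 (log2 0.91 ± 0.03). miR-214 of the same transcript read 859 and 1338 (log2 0.64 ± 0.09). All 4 listed probes of miR-199 and miR-214 lay above 0 h, against 52.7% of all listed probes, with a median of 0.62. miR-29b, which represses collagen and other matrix genes, read 135 and 252 (log2 0.91 ± 0.07), and miR-29a read 572 and 780 (log2 0.45 ± 0.06). The highest ratio among probes that were not faint was that of miR-376a (64.2 and 124, log2 0.95 ± 0.24). By the ratio table, 10 probes that were not faint were at least 2-fold higher, among them miR-376a (1.14), miR-29b (1.15), the probe of miR-199a-3p and miR-199b (1.07) and miR-125b-5p (1.06). miR-19a stood at 0.83 with a spot SE of 0.81, from a 0 h variation of 96.8%, and read 0.00 in the ratio table.

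Other families with cell-cycle genes among their targets were also above 0 h, at small ratios. The counts of this paragraph stand against 52.7% of all listed probes above 0 h and 3.69% at least 2-fold higher. In the miR-17-92 cluster and its paralogs, known for promoting proliferation, 10 of 11 members lay above 0 h with a median of 0.34 and none at least 2-fold higher. miR-17 read 214 and 267 (log2 0.32 ± 0.08), and miR-25, the member below 0 h, read 60.8 and 51.2 (log2 -0.25 ± 0.13). All 5 listed members of the group of miR-15, miR-16 and miR-107, whose targets include cyclins, lay above 0 h, with a median of 0.39. The clusters of miR-23, miR-24 and miR-27 gave 5 of 5 with a median of 0.48. miR-27b was the highest of these (251 and 389.6, log2 0.64 ± 0.09) and miR-27a the lowest (275 and 351, log2 0.35 ± 0.06). miR-221 and miR-222, repressors of the cell-cycle inhibitor p27, read 355 and 566 (log2 0.67 ± 0.07) and 213 and 302 (log2 0.50 ± 0.14). All listed members of the miR-30, miR-181, miR-26, miR-99 with miR-100, and miR-125 families lay above 0 h too (4, 4, 2, 3 and 3 probes), with medians of 0.29, 0.27, 0.54, 0.48 and 0.56.

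Seeds could be read only for the 230 probes with a matched sequence, of which 136 lay above 0 h, against 21 of the 68 without one. Just 5 of the 28 probes of the Sfmbt2-intron group, described below, had a match, so that group is largely missing here. Among the matched miRNAs, 8 seeds were shared by 3 or more, and every probe of these 8 lay above 0 h. The let-7 seed GAGGUAG had the highest median, 0.82 over 10 probes. It was followed by CCCUGAG of miR-125a-5p, miR-125b-5p and miR-351 (median 0.56) and by AGUGCAA of miR-130a, miR-130b and miR-301a (median 0.50). Below these came ACCCGUA of miR-99 and miR-100 (0.48), AGCAGCA of miR-15 and miR-16 (0.39), GUAAACA of miR-30a, miR-30c and miR-30e (0.36), AAAGUGC of miR-17 and 5 relatives (0.30) and ACAUUCA of miR-181 (0.27). Probes against members of 1 family can take up each other's miRNA, so the members of a seed group are not separate measurements.

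**Figure D2:**
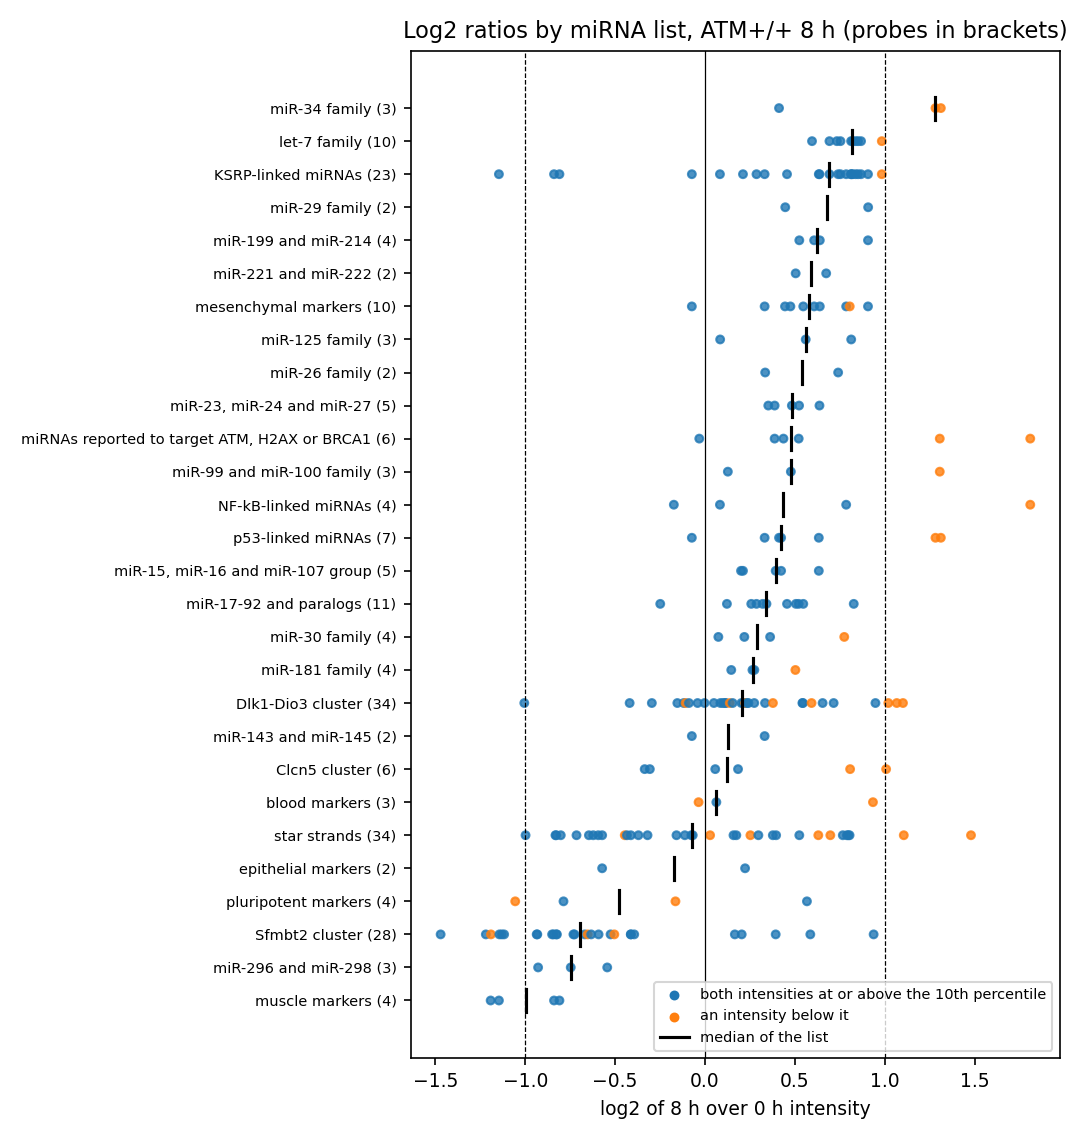
Log2 ratio of 8 h over 0 h intensity (horizontal) for every listed probe of each miRNA list with 2 or more probes (vertical, number of probes in brackets); blue points were not faint, orange points were, the black bars are list medians and the dashed lines mark 2-fold. The list medians run from -0.99 for the muscle miRNAs to 1.28 for the miR-34 family, and the orange points hold every list member beyond the right dashed line.

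Of the miRNAs whose maturation has been linked to KSRP, 19 of 23 listed probes lay above 0 h, with a median of 0.69. By at least 2-fold, none was higher and 1 was lower. Over all listed probes, 52.7% lay above 0 h, and 3.69% were higher and 8.39% lower by at least 2-fold. The list contains 8 let-7 probes together with miR-21, miR-125b-5p and miR-16, and it was put together with results on these samples known, so its direction is not independent evidence. The 4 members below 0 h were miR-145 and the muscle miRNAs miR-206, miR-1 and miR-133a.

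Muscle miRNAs, made in skeletal and heart muscle, were listed at low to moderate intensity. All 4 lay below 0 h, against 47.3% of all listed probes. miR-1 read 314 at 0 h and 175 at 8 h, a log2 ratio of -0.84 ± 0.08. miR-206 read 121 and 69.2, a log2 ratio of -0.81 ± 0.10. miR-133a read 83.9 and 37.9 (log2 -1.15 ± 0.04) and miR-133b read 75.9 and 33.2 (log2 -1.19 ± 0.11). Their median of -0.99 was the lowest of all lists, and the ratio table gave -0.90 over the same 4 probes. Their summed intensity was 595 at 0 h and 316 at 8 h.

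The miRNAs numbered miR-297, miR-466, miR-467 and miR-669, most of which are encoded in an intron of the imprinted gene Sfmbt2 (the Sfmbt2-intron group), were the largest set below 0 h. Of its 28 listed probes 23 lay below 0 h, against 47.3% of all listed probes, with a median of -0.70. At least 2-fold lower were 6 of the 28, against 8.39% of all listed probes. miR-669c read 1476 at 0 h and 532 at 8 h, a log2 ratio of -1.47 ± 0.10. miR-466f-3p read 805 and 371 (log2 -1.12 ± 0.17) and miR-466c-5p read 468 and 212 (log2 -1.14 ± 0.06). The 5 members above 0 h were dim, between 32.9 and 52.6 at 0 h, and the highest of them was miR-467e (32.9 and 63.1, log2 0.94 ± 0.39, with a 0 h variation of 47.0%). Most are encoded in 1 intron, so they are not independent of each other.

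Outside that group, the lowest ratios of probes that were not faint included several bright ones. miR-1187 read 4307 at 0 h and 1689.8 at 8 h, a log2 ratio of -1.35 ± 0.17. miR-574-5p read 3337 and 1318, a log2 ratio of -1.34 ± 0.05. Both carry the U and G repeats printed above. miR-705 read 1868 and 878 (log2 -1.09 ± 0.02), and miR-882 read 374 and 146 (log2 -1.35 ± 0.09). miR-1897-5p read 588 and 266.5 (log2 -1.14 ± 0.03). miR-694, the lowest of the probes that were not faint, read 107 and 37.4 (log2 -1.52 ± 0.25). miR-1903 and miR-325 stood at -1.20 ± 0.22 and -1.11 ± 0.06. The lowest faint probes were miR-692 (78.7 and 25.7, log2 -1.61 ± 0.22), miR-872 (log2 -1.40 ± 0.17) and miR-297c (log2 -1.19 ± 0.05). miR-296-5p, miR-296-3p and miR-298, from the imprinted Gnas locus, were all below 0 h at -0.54 ± 0.16, -0.93 ± 0.09 and -0.75 ± 0.05.

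The brightest probes at 8 h carried late-numbered miRNA names. miR-709 read 78852 at 0 h and 54353 at 8 h. It was the 1 probe whose variation between spots was below 0.1% on both arrays, and it was the brightest; whether its signal was saturated was not tested, and no fold is read from it. miR-690 read 41034 and 27070 (log2 -0.60 ± 0.08) and miR-1195 read 41071 and 26375 (log2 -0.64 ± 0.01). miR-762 was near 0 h, at 14910 and 16059 (log2 0.11 ± 0.12), and miR-1224 read 11071 and 8029.8 (log2 -0.46 ± 0.06). The direction of miR-720 depended on the readout: 47154 and 36176 gave a log2 ratio of -0.38 ± 0.39, with a 0 h variation of 46.8%, while the ratio table gave 0.85. When both arrays were quantile normalized, miR-690 turned to 0.019, miR-1195 moved to -0.019 and miR-1224 to 0.0. That method sets probes of equal rank to the same value, so it brings the brightest probes near 0 and decides nothing about them. Centred on the median, miR-690, miR-1195 and miR-1224 stood at -0.67, -0.70 and -0.53. Scaled on the 75th percentile, they stood at -0.64, -0.68 and -0.50.

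Both strands of a hairpin could be compared in 29 pairs of probes, one for a named strand and one for its star strand. These held 27 star names, since miR-431 and miR-483 each entered with more than 1 probe pair, and the probe of miR-30c was set against both miR-30c-1* and miR-30c-2*. The named strand had the higher ratio in 18 pairs and the star strand in 11, with medians of 0.39 and -0.07. Of the 34 star probes, 16 lay above 0 h and 2 were at least 2-fold higher, against 52.7% and 3.69% of all listed probes. For miR-21, the named strand stood at 0.79 ± 0.06 and miR-21* (89.5 and 84.9) at -0.08 ± 0.07. For let-7b, it stood at 0.75 ± 0.05 and let-7b* (83.9 and 56.4) at -0.57 ± 0.07. These strands of 1 precursor were thus apart by more than their spot error. The widest gap was between miR-30c (0.77 ± 0.26, faint) and miR-30c-1* (897 and 504, log2 -0.83 ± 0.03). In the opposite order, miR-22 (1103 and 1612, log2 0.55 ± 0.10) lay below the faint miR-22*. miR-24 (log2 0.39 ± 0.02) lay below miR-24-2*. In miR-140* (102 and 176, log2 0.79 ± 0.11) and miR-299* (log2 0.80 ± 0.13) the star strand was among the 15 highest ratios of probes that were not faint. With both strands above the faint range, the named strand was higher in 13 of 20 pairs.

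**Figure D3:**
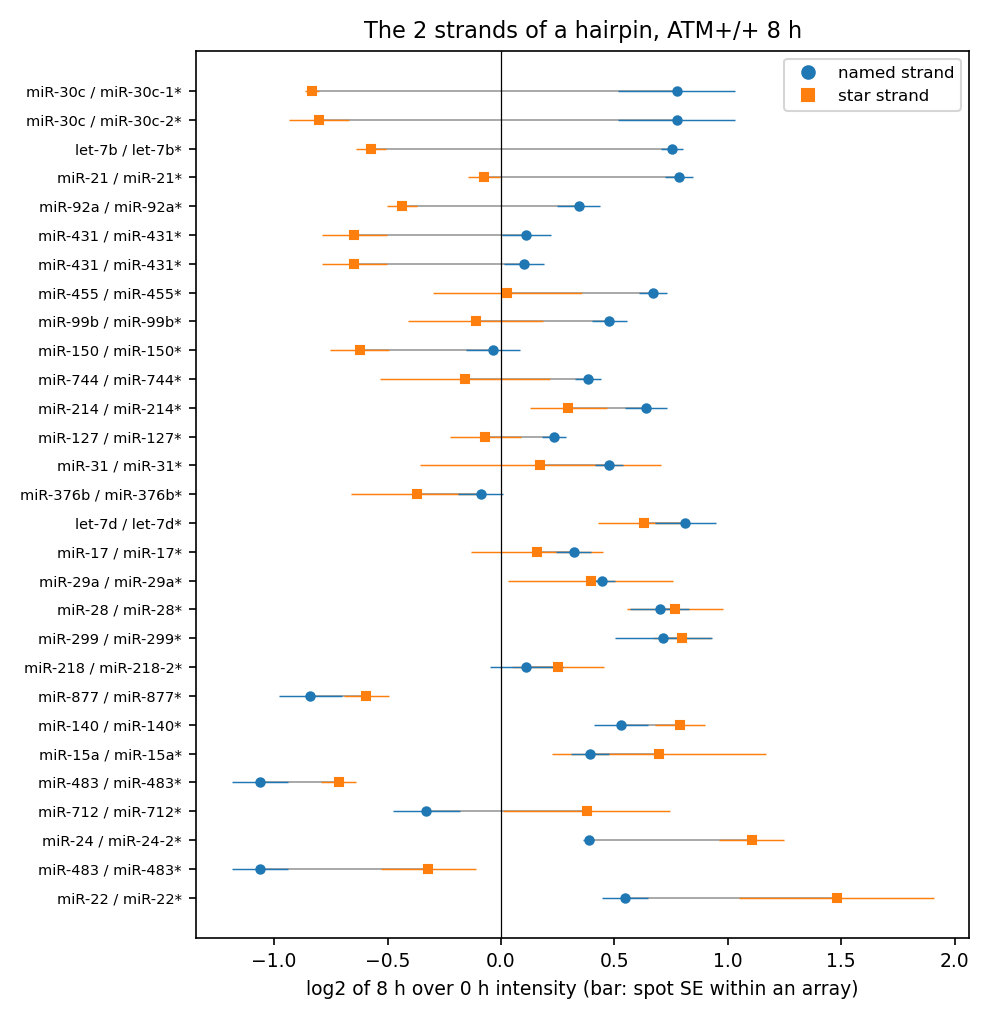
Log2 ratio of 8 h over 0 h intensity (horizontal) for the named strand (blue circle) and star strand (orange square) of 29 pairs of probes (vertical), ordered by their difference; bars are the spot SE. The upper 18 pairs have the named strand to the right, with miR-30c, let-7b and miR-21 near the top, and the lower 11 the star strand, ending with miR-22*.

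The imprinted Dlk1-Dio3 cluster, a large group of miRNAs expressed from the maternal allele, was spread on both sides of 0 h. Of the 34 listed probes assigned to it by name, 25 lay above 0 h, against 52.7% of all listed probes. Their median was 0.21. By at least 2-fold, 3 were higher and 1 was lower, against 3.69% and 8.39% of all listed probes. miR-127, which represses the cluster's retrotransposon-derived gene Rtl1, read 281 at 0 h and 330.1 at 8 h (log2 0.23 ± 0.05). The assigned member that was 2-fold lower was the brightest of them, miR-494, which read 1119 and 557 (log2 -1.01 ± 0.10). miR-882, printed above with its place on chr12 and lower at log2 -1.35, was not among the assigned names. Whether miR-882 lies within the cluster was not tested. In the cluster within the gene Clcn5, 4 of 6 lay above 0 h, a share near the 52.7% of all listed probes, with a median of 0.12 and a range from -0.34 for miR-532-3p to 1.01 for miR-501-3p.

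The miRNAs known to mark fibroblasts were present. Of 10 listed mesenchymal probes, 9 lay above 0 h, against 52.7% of all listed probes, with a median of 0.58. Their summed intensity was 6432 at 0 h and 9171 at 8 h. The epithelial markers miR-200b and miR-141 had a summed intensity of 485 at 0 h and 359 at 8 h, most of it from miR-141 (418 and 281). The other 5 epithelial markers were not among the listed probes. The 3 listed blood markers summed to 98.4 and 127, and the 4 listed pluripotent markers to 198 and 163. 1 of 6 neural markers was listed, miR-129-3p, at 41.4 and 42.6, and none of the liver or endothelial markers. The part of other cell types in the results was not tested.

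The other harvests of the same cells share the 0 h array with the 8 h values, so the values are given side by side. Over the 238 probes of the ratio table, the medians at 4, 8 and 24 h were 0.21, 0.21 and 0.26. The probes 2-fold or more above 0 h numbered 27, 20 and 44, and those 2-fold or more below it 40, 17 and 24. The 8 h ratio was the closest of the 3 to 0 in 125 probes and the farthest in 41. Ratios of 8 h to 4 h do not use the 0 h array, but compare arrays on different chips: 14 probes were at least 2-fold higher at 8 h (5.88%) and 1 was lower (0.42%). Ratios of 24 h to 8 h compare arrays on 1 chip, and there 2 probes were at least 2-fold higher at 24 h (0.84%) and 6 were lower (2.52%).

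The let-7 family was lower at 8 h than at 4 h in 8 of 9 probes, against 53.8% of the 238, and higher at 24 h than at 8 h in 9 of 9, against 61.8%. Its medians were 1.07, 0.99 and 1.54. The step from 4 to 8 h was small, with a median of -0.09, and that from 8 to 24 h was 0.49. miR-21 followed the same order, at 1.23, 0.95 and 1.51. The probes of miR-23, miR-24 and miR-27 also had their lowest ratio at 8 h, in 5 of 5, against 101 of the 238. Their medians were 0.90, 0.68 and 1.21. miR-146a stood at 1.77, 1.97 and 2.58, and miR-34b-5p at 1.85, 1.54 and 1.56.

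The Sfmbt2-intron group was higher at 8 h than at 4 h in 18 of 22 probes, against 45.8% of the 238, with a median difference of 0.72. Its medians at 4, 8 and 24 h were -1.19, -0.60 and -0.60. miR-669c stood at -2.18, -1.22 and -0.97, and miR-1187 at -2.18, -1.18 and -1.09. The muscle miRNAs did not share this order, with medians of -0.45, -0.90 and -0.66; miR-133a stood at -0.30, -0.92 and -1.60. Above both other times by at least 1 on the log2 scale were 2 probes, miR-467e (-0.47, 1.34 and -0.38) and miR-684 (-1.43, -0.34 and -1.69), and 0 were below both by as much. miR-684 is named only for this count, after its values were seen. miR-501-3p stood at -0.45, 1.42 and 1.16, but its intensities gave 0.20 at 4 h, so its direction at that time depended on the readout.

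**Figure D4:**
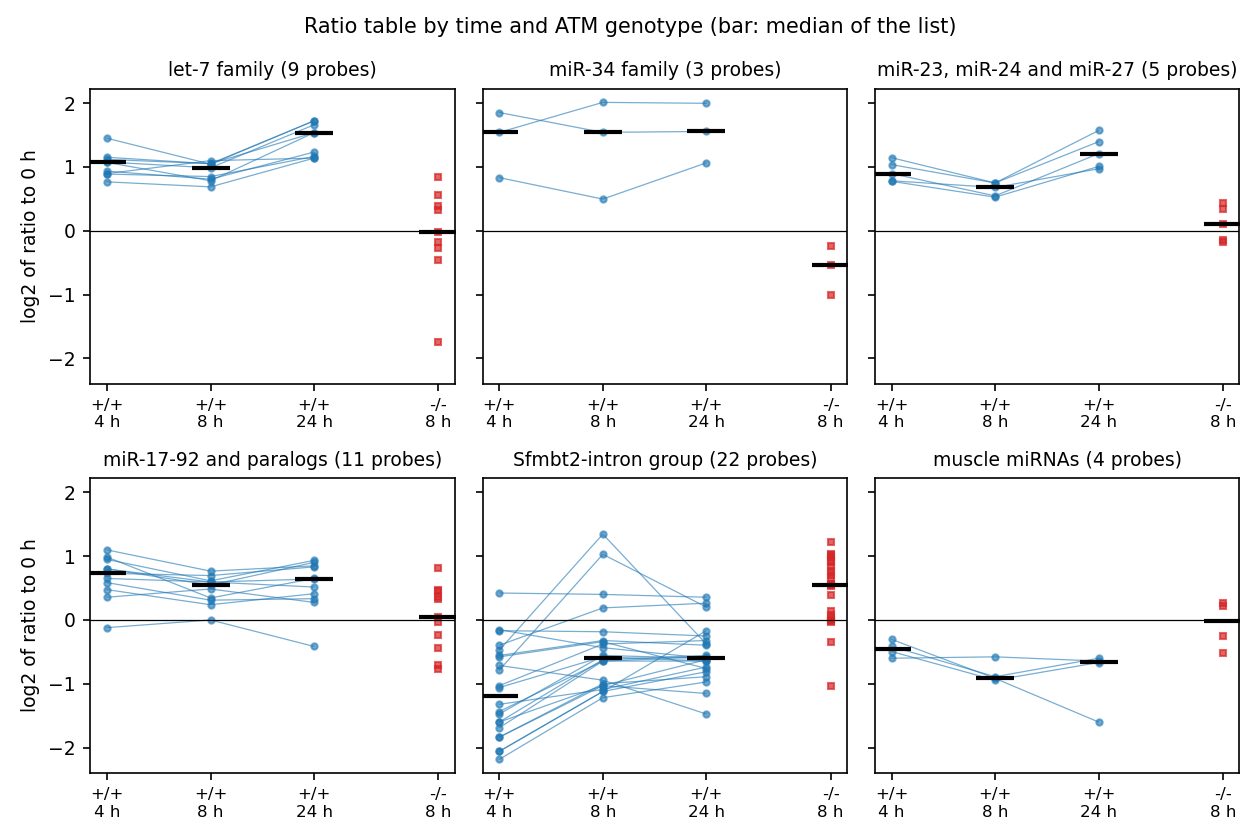
Log2 of the ratio to 0 h from the ratio table (vertical) at 4, 8 and 24 h in ATM+/+ cells (blue, 1 line a probe) and at 8 h in ATM-/- cells (red squares) for 6 lists; black bars are list medians. The let-7 medians of 1.07, 0.99 and 1.54 stand beside -0.01 in ATM-/- cells, and the Sfmbt2-intron medians of -1.19, -0.60 and -0.60 beside 0.55. Over all probes of the 8 h comparison in the ratio table, the 8 h medians were 0.21 in ATM+/+ and 0.14 in ATM-/- cells.

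ATM-/- cells at 8 h were compared with their own 0 h array, in a sheet that was normalized separately and listed 154 probes, of which 147 were also listed for ATM+/+ cells. Over these 147 the median log2 ratio was -0.28 in ATM+/+ and -0.10 in ATM-/- cells. At least 2-fold higher were 2 (1.36%) and 4 (2.72%), and at least 2-fold lower were 14 (9.52%) and 8 (5.44%). The sign differed between genotypes in 104 of the 147, with 52 higher in ATM+/+ and lower in ATM-/- cells and 52 the other way. In the ratio table, whose ATM-/- values exceeded those of the sheet (median difference 0.61), the sign differed in 71 of 120, with 17 higher in ATM+/+ and lower in ATM-/- cells and 54 the other way. The difference between genotypes has no replicates and was not tested. The median 0 h intensity of the 147 probes was 181 in ATM+/+ and 84.7 in ATM-/- cells.

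Of the let-7 family, 6 probes were listed for ATM-/- cells, 2 of them above 0 h, against 43.5% of the 147, with a median of -0.43 in the sheet; over the 9 probes of the ratio table the median was -0.01. The levels were low there: the let-7a probe that read 558 and 1007 in ATM+/+ cells read 39.8 and 23.6 in ATM-/- cells, with a spot SE of 0.76. miR-21 read 34.2 and 21.1 in ATM-/- cells, a log2 ratio of -0.70 ± 0.83. These ratios allow little to be read, because both 8 h values lay below 30.9, the faint limit set on the ATM+/+ intensities. miR-125b-5p was well above it, at 366 and 291 (log2 -0.33 ± 0.17 by the sheet and 0.20 by the ratio table), and so was miR-214, at 562 and 425 (log2 -0.40 by the sheet and 0.25 by the ratio table).

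Of the Sfmbt2-intron group, 14 of 16 probes listed for ATM-/- cells lay above 0 h, against 43.5% of the 147. Its median in ATM-/- cells was 0.21 in the sheet and 0.55 over 22 probes in the ratio table. That table's ATM-/- median was 0.14 over all its probes listed for ATM+/+ cells, and 0.46 over those listed in both sheets. miR-669c read 187 and 226 in ATM-/- cells (log2 0.27 ± 0.13). miR-1187 read 382 and 441 (log2 0.21 ± 0.16), and miR-574-5p read 302 and 284.5 (log2 -0.08 ± 0.07). The muscle miRNA miR-133a stood at a log2 ratio of -1.28 ± 0.28 in ATM-/- cells, and the 3 muscle probes listed there had a median of -0.35. In the ratio table the median of the 4 muscle probes was -0.013, with 2 above 0 h. In the ratio table miR-34a, miR-34b-5p and miR-34c stood below 0 h in ATM-/- cells, from -0.23 for miR-34c and -0.54 for miR-34a to a 2-fold lower value for miR-34b-5p. Only 1 of these 3 probes was listed in the ATM-/- sheet, at -0.17, so the others have no intensities there.

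**Figure D5:**
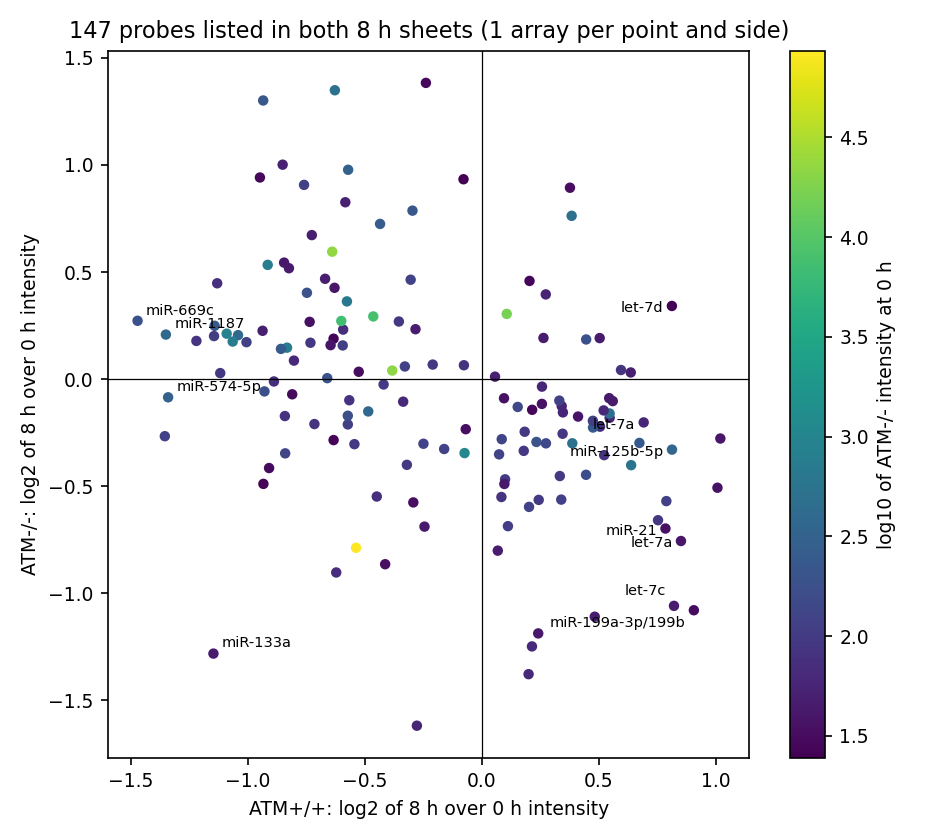
Log2 ratio of 8 h over 0 h intensity in ATM-/- cells (vertical) against ATM+/+ cells (horizontal) for the 147 probes listed in both sheets, coloured by the log10 of the ATM-/- intensity at 0 h. The upper left and lower right fields hold 52 probes each; the darkest points, lowest in intensity, include let-7a, let-7c, miR-21 and miR-199a-3p.

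The readouts of the ATM+/+ comparison had the same sign in 209 of 238 probes (87.8%), with the ratio table higher by a median of 0.16. After that offset was removed, the median absolute deviation between them was 0.07 in the 169 probes whose spots varied by at most 20% on both arrays and 0.23 in the other 69. Apart from that offset, probes with well-matched spots thus gave nearly the same ratio in both readouts, which come from the same arrays. At the 2-fold limit the readouts differed. Among probes that were not faint, 0 were that much higher by the intensities and 10 by the ratio table.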

How the data were processed

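The 2 arrays of ATM+/+ cells at 0 h and 8 h were analysed, with those at 4 h and 24 h and the ATM-/- arrays beside them. Per the labels' protocols, a Kreatech ULS kit was used to label the miRNA of 4 µg of Trizol-extracted total RNA. Per the file headers, the deposited comparison holds a normalized intensity per probe and array, and the authors' coefficient of variation as a ratio of SD to mean over spots. The deposited log2 value equals log2 of 8 h over 0 h intensity in all 298 probes. The deposited p-value equals, within 0.1%, an equal-variance comparison of 3 spots a side in all 298. The ratio table deposited by the authors divides each array by its 0 h array and gives 2 decimals. Scanner processing, background correction, normalization and the rule for listing a probe were not given in the sources used here.

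Log2 ratios were computed from the intensities with no pseudocount, and the spot SE from the 2 coefficients of variation over 3 spots, in Python 3.11.15 with pandas 2.3.3 and numpy 2.4.6. Both were tested on simulated spots. Probe names are those of the deposited lists, and old names were paired with RefSeq names by hand. Named miRNAs are the 15 highest and 15 lowest ratios that were not faint, the 10 brightest at 8 h, the 3 highest and 3 lowest faint ones, and members of the lists; the other probes at least 2-fold higher were named because all 11 are given. The members and lists were chosen with earlier results of these data known. Alternatives were the ratio table, 3 scalings, 2 intensity filters, a filter on spot variation and averaging of probes of 1 name. Motifs and base composition were not tested, because under 80% of probes had a sequence.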

Additional observations from a re-analysis of the deposited data

Results flagged for a closer look

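The results here were picked among the miRNAs named for the highest or lowest ratios or the highest 8 h intensity. In them the single ATM+/+ array and the single ATM-/- array lay on opposite sides of 0 h at 8 h. That held in both the intensities and the ratio table. They are not a full count: over the 147 probes listed in both sheets, the sign differed in 104 by the intensities. By the ratio table it differed in 71 of 120. Picking by the highest or lowest ATM+/+ ratios favours wide differences. The value given is the ATM+/+ minus the ATM-/- log2 ratio of 8 h over 0 h from the intensities. With 1 array a group and sheets normalized separately, the difference was not tested.

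Higher in ATM+/+ and lower in ATM-/- cells were 4 of the picked miRNAs, where 52 of all 147 probes were so by the intensities. By the ratio table, 17 of 120 probes were so. The differences were 1.61 for let-7a, 1.88 for let-7c, 1.48 for miR-21 and 1.99 for the shared probe of miR-199a-3p and miR-199b. All 4 had ATM-/- intensities between 14.7 and 46.0, within or near the faint range below 30.9. Their spot SE in ATM-/- cells was 0.76, 0.92, 0.83 and 0.17.

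Lower in ATM+/+ and higher in ATM-/- cells were 10 of the picked probes, where 52 of all 147 probes were so by the intensities. By the ratio table, 54 of 120 probes were so. Within the Sfmbt2-intron group the differences were -1.74 for miR-669c, -1.58 for miR-669d, -1.35 for miR-466c-5p and -1.15 for miR-466f-3p. Outside it they were -1.56 for miR-1187, -1.39 for miR-1897-5p and -1.30 for miR-705. For the very bright probes miR-1195, miR-690 and miR-1224 they were -1.23, -0.87 and -0.76. Under quantile normalization the ATM+/+ log2 ratio turned to 0.019 for miR-690 and moved to -0.019 for miR-1195 and 0.0 for miR-1224. That method brings the brightest probes near 0, and the ATM-/- values were not rescaled. Whether the contrast of these 3 depended on the scaling was therefore not tested.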

How the results depend on the processing

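No paired analysis was possible because each group held 1 array. Of the counts and the medians of lists with at least 3 listed probes, 173 values under the alternatives moved by less than the limits set and 37 by more. For smaller lists and single named miRNAs, 298 values moved by less, 41 moved by more and 2 changed sign. The ratio table over all its 431 probes and the count without miR-883a-5p (10 higher, 25 lower) were added after the data were seen. Where a value moved, the cause was not tested, except that the filters and the ratio table hold fewer probes.

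By the ratio table, 20 probes were at least 2-fold higher, or 26 over all its probes, and the median of all probes was 0.21 or 0.23. Its list medians were 0.99 for let-7, 1.54 for miR-34, 0.73 for p53-linked, 0.68 for miR-23, miR-24 and miR-27, 0.55 for miR-17-92, 0.49 for miR-30, 0.43 for miR-181, 0.74 for miR-125, 0.93 for miR-199 and miR-214, 0.77 for miRNAs with ATM, H2AX or BRCA1 as reported targets, and 0.44 for the Clcn5 cluster. The value for miR-199 and miR-214 rested on 2 probes. Of the single named miRNAs, 23 moved by more than the limits in the ratio table and 11 by less. There 1 changed sign: miR-720 turned from -0.38 to 0.85. Quantile normalization gave 0.35 for miR-125. It turned miR-690 from -0.60 to 0.019, and moved miR-1195 from -0.64 to -0.019 and miR-1224 from -0.46 to 0.0. The method sets probes of equal rank to the same value, so it brings such very bright probes near 0.

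Without faint probes, 0 of 246 were at least 2-fold higher. The single miR-34 probe left, that of miR-34a, stood at 0.41. Medians were then 0.30 for miR-99 and miR-100 (2 probes), 0.083 for NF-kB-linked (3), -0.12 for Clcn5 (4) and -0.11 for pluripotent miRNAs (2). With both intensities at or above the median, 0 of 132 probes were higher and 13 of 132 lower by 2-fold. The unfiltered counts were 11 and 25 of 298. With 1 probe left each, miR-34 stood at 0.41, NF-kB-linked (miR-21) at 0.79 and muscle miRNAs (miR-1) at -0.84. Medians were then -0.076 for Clcn5 (2 probes), -0.84 for the Sfmbt2 group (14) and -0.43 for star strands (7). With spots varying by at most 20%, 3 of 205 probes were higher and 22 of 205 lower by 2-fold. With 1 probe left each, miR-34 stood at 0.41 and miR-30 at 0.074. Medians were then 0.30 for miR-99 and miR-100 (2 probes), -0.44 for star strands (20), 0.45 for blood (2) and -0.16 for pluripotent miRNAs (3). The 3 scalings gave 9 to 13 higher and 25 to 28 lower. Low signal limits every ratio of a faint probe.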
